A study of Mus musculus with 4 samples.

Results

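The genes described here encode the oxidases of the intestinal epithelium that make superoxide, hydrogen peroxide or nitric oxide, and the glutathione peroxidases that remove peroxides. They were chosen by name, 10 genes in all, and every probe set that the platform annotation assigns to 1 of these symbols alone was used. This gave 9 probe sets of the 45101 deposited, for 8 of the 10 genes (18193 genes had such a probe set in all): Duoxa2, Noxo1, Cyba, Nos2, Gpx1, Gpx2, Gpx3 and Gpx4. Duox2 and Nox1 had no such probe set and were not analysed here. Gpx4 was the 1 gene with 2 probe sets. Transcripts were measured on single-colour arrays in crypts, the epithelial pockets of the mouse intestine, cut out by laser capture. The mutant group held 2 arrays from mice whose beta-catenin gene had been deleted with tamoxifen, taken 2 days after induction, and the control group held 2 arrays from control mice at the same time. The strain, age, intestinal segment, the driver of the deletion, the genotype of the controls and whether the controls received tamoxifen are not stated in the labels. Nothing states that the arrays of a group came from separate mice, so p-values cover the spread among these 4 arrays, and that spread may be technical.

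NADPH oxidases move electrons from NADPH across a membrane to oxygen. In the gut epithelium the enzymes Duox2 and Nox1 do this at the cell surface, each with partner proteins that it needs to reach the membrane or to become active, and the inducible nitric oxide synthase Nos2 adds nitric oxide. Glutathione peroxidases reduce the resulting peroxides with glutathione, and Gpx1, Gpx2, Gpx3 and Gpx4 carry selenocysteine at the active site. Gpx2 is the family member named for the gastrointestinal epithelium and is known to be concentrated in crypts.

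Array quality bears on all values. Trimmed means of the deposited signals were 169 and 111 in mutant replicates 1 and 2 and 130 and 130 in the controls, and log2(signal + 5) values were therefore quantile-normalized. The ratio of 5' to 3' signal of a control transcript falls below 1 where the signal is biased to the 3' end. For beta-actin it ranged from 0.0448 to 0.0945 in the mutants and from 0.0567 to 0.149 in the controls. For Gapdh it was 0.104 and 0.0267 in mutant replicates 1 and 2 and 0.116 and 0.0582 in control replicates 1 and 2. The 3' bias was thus strong on every array. All 10 measured epithelial markers and all 6 crypt markers passed the filter on dim probe sets, a mean log2 signal of at least 4.79. The mean log2 signal of the crypt markers was 9.21 and 9.43 in the mutants and 10.02 and 10.21 in the controls. After normalization 5 of the 6 were lower in the mutants without overlap and 0 higher, beside 19.2% and 18.9% of all kept genes. Their summed deposited signals overlapped, at 16478 and 16838 in the mutants and 16479 and 21751 in the controls. Lyz1 made up most of each sum, at 11493 and 12346 in the mutants and 8453 and 11862 in the controls. Of 13 measured myeloid markers 9 passed, with Itgam, Mpo, S100a8 and S100a9 below the filter, and the summed deposited signal of the 13 was 2346 to 3165 in the mutants and 1758 to 2119 in the controls. Their mean log2 signal overlapped after normalization, at 6.08 and 6.04 in the mutants and 6.11 and 5.97 in the controls. Pancreatic acinar transcripts stood out in mutant replicate 1, at a summed signal of 50684 over 6 genes, against 79.9 in mutant replicate 2 and 133 to 171 in the controls. The brightest probe set of the deleted gene, Ctnnb1, differed by -0.56 (SE 0.22) on the log2 scale, and its other kept probe set, a dim one, by 0.38 (SE 0.50). Which part of the gene was deleted is not stated in the labels. That of the Wnt target gene Axin2 differed by -1.92 (SE 0.46).

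The question of the comparison was which transcripts differ in crypts after loss of beta-catenin. Of the 9 probe sets, 8 passed the filter, and the Nos2 probe set did not. Among the 8, the 3 with both mutant arrays above both control arrays were those of Duoxa2 and Gpx2 and the x_at probe set of Gpx4, and 0 had both below. Of all 22519 probe sets kept, 17.3% were higher without overlap and 18.9% lower. On the deposited scale 2 of the 8 were higher without overlap, as were 13.3% of all kept. The median difference of the 8 was 0.28 on the log2 scale, beside -0.0024 over all probe sets kept. The middle values that set it were those of both Gpx4 probe sets, 0.29 (SE 0.29) and 0.27 (SE 0.26). By limma, with p-values adjusted by Benjamini-Hochberg over every kept probe set, 0 of the 8 passed at an adjusted p of 0.05, and 0 of 22519 did (0.0%). At an unadjusted p under 0.05 there were 2 of the 8, Duoxa2 and Gpx2, and 1415 of 22519 (6.28%). Duoxa2 passed the filter through its mutant arrays, the control mean being below it, and these counts are descriptions and not support. In a test on data modelled on this comparison, 0% of probe sets changed 2-fold and 7.17% of those changed 4-fold were called.

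**Figure D1:**
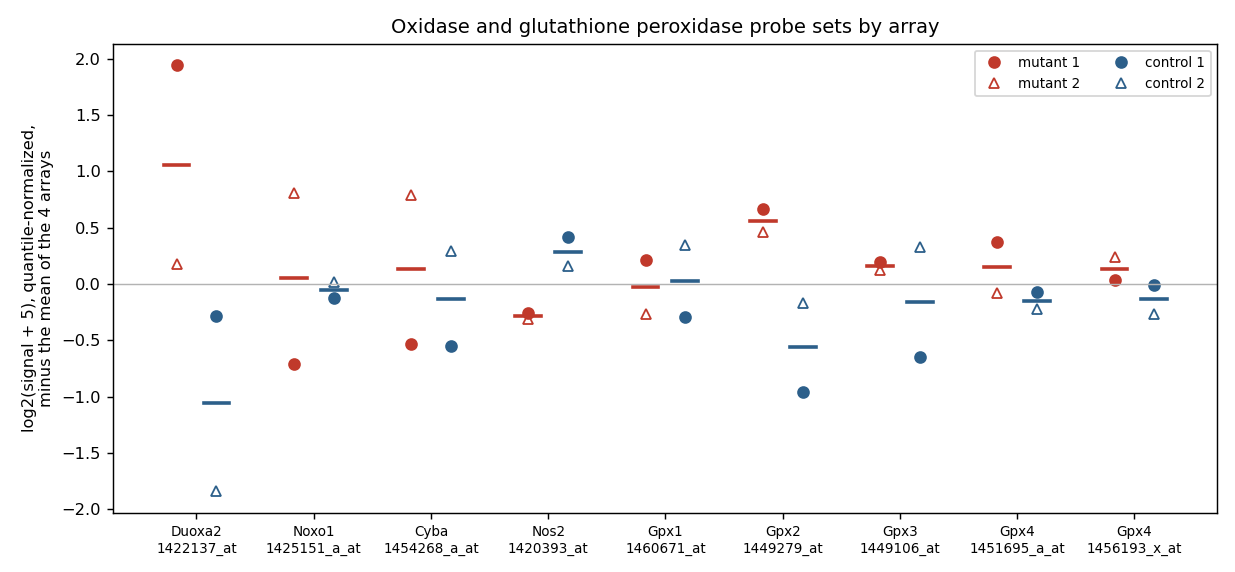
Each point is 1 array. The vertical axis is the quantile-normalized log2(signal + 5) of a probe set minus its mean over the 4 arrays, bars are group means, mutants stand left of controls, and circles and triangles are replicates 1 and 2. Both mutant points lie above both control points for Duoxa2, Gpx2 and the x_at probe set of Gpx4, and below them for Nos2, which did not pass the filter.

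Gpx2 (1449279_at), the gastrointestinal glutathione peroxidase, had the clearest separation of the groups among the peroxidases. Its probe set gave deposited signals of 6908 and 4739 in mutant replicates 1 and 2, against 1691 and 3113 in control replicates 1 and 2. Both mutant signals exceeded both control signals before any scaling. After normalization the log2 signal was 12.38 ± 0.15 in the mutants and 11.26 ± 0.56 in the controls (SD, n = 2 each), a difference of 1.12 (SE 0.30), or 2.18-fold. In bulk samples such as these, a larger share of cells that express a gene and more RNA per cell cannot be told apart. Of all kept probe sets, 1.94% had a larger positive difference. The limma adjusted p was 0.768, and the difference did not pass. The 4 pairings of a mutant with a control array ranged from 0.62 to 1.62, all positive. The difference was 1.03 when mutant replicate 1 was left out, which carried the pancreatic transcripts, and between 0.74 and 1.51 over the 4 fits that left out 1 array.

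In human cells the GPX2 promoter is known to respond to beta-catenin with TCF factors and to the antioxidant factor NRF2. The bases upstream of the annotated Gpx2 start are shown because the transcript was at higher signal in crypts where Axin2 was at lower signal. Neither difference passed the limma test, and a link between the 2 was not tested. The sequence is from RefSeq, build GRCm38.p6, chr12:76795555-76795804, minus strand, 5′ to 3′, and ends at the base before the start. Capitals mark the TCF motif CTTTGTT.
Gpx2: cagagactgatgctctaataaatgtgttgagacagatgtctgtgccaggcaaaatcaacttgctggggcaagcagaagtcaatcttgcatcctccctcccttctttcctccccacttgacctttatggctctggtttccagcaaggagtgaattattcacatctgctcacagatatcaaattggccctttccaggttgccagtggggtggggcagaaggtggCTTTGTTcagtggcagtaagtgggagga
The motif lay 28 to 22 bases before the start, on the strand of the gene. Searched on both strands, CTTTGTT occurred in 5.03% of 32851 upstream windows of 250 bases. The other motifs searched had no match in this window. They were the TCF form CTTTGAT (3.21% of windows), the antioxidant response core TGACNNNGC (10.2%), the STAT motif TTCNNNGAA (7.02%), the TATA motif TATAAA (12.4%) and the kappa B consensus (7.25%). Among the upstream windows of the other measured peroxidases, that of Gpx1 held a kappa B match, 55 to 46 bases before the start, and those of Gpx3 and Gpx4 held no match to these motifs. No 2 matches overlapped. A match is a description of the letters and shows no binding.

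Gpx1 (1460671_at), the ubiquitous cytosolic and mitochondrial glutathione peroxidase, did not separate the groups. Its signals were 5933 and 3172 in mutant replicates 1 and 2, against 2909 and 5162 in control replicates 1 and 2, so that each group held 1 high and 1 low array. The normalized log2 signal was 11.97 ± 0.34 in the mutants and 12.03 ± 0.46 in the controls (SD, n = 2 each). The difference was -0.05 (SE 0.30; limma adjusted p = 0.986), and its sign changed on the deposited scale (0.16) and after median centring (0.28). It was likewise positive without control replicate 2 (0.26) and without mutant replicate 2 (0.19).

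Gpx3 (1449106_at), the secreted peroxidase of blood plasma, also overlapped. It had signals of 224 and 134 in mutant replicates 1 and 2, against 105 and 201 in control replicates 1 and 2. After normalization the 2 mutant arrays were close to each other, at 7.53 and 7.46, and lay between the controls, at 6.69 and 7.66. The difference was 0.32 (SE 0.42; limma adjusted p = 0.923), and without control replicate 1 it turned to -0.17.

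Gpx4 reduces lipid hydroperoxides within membranes and protects cells from ferroptosis, a form of cell death by lipid peroxidation. Its a_at probe set (1451695_a_at) gave 3010 and 1473 in mutant replicates 1 and 2, against 1565 and 1494 in control replicates 1 and 2. Mutant replicate 1 alone was high there. The x_at probe set (1456193_x_at), a class whose probes may also bind other transcripts, gave 3191 and 2592 in the mutants, against 2126 and 1971 in the controls. Here both mutant arrays were above both controls. The differences after normalization were 0.29 (SE 0.29) and 0.27 (SE 0.26), alike in size, and neither passed the test (limma adjusted p = 0.887 and 0.885). The mutant arrays were 0.45 apart and the control arrays 0.15 apart for the a_at probe set, and 0.21 and 0.25 apart for the x_at probe set, which is close to the size of the differences.

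**Figure D2:**
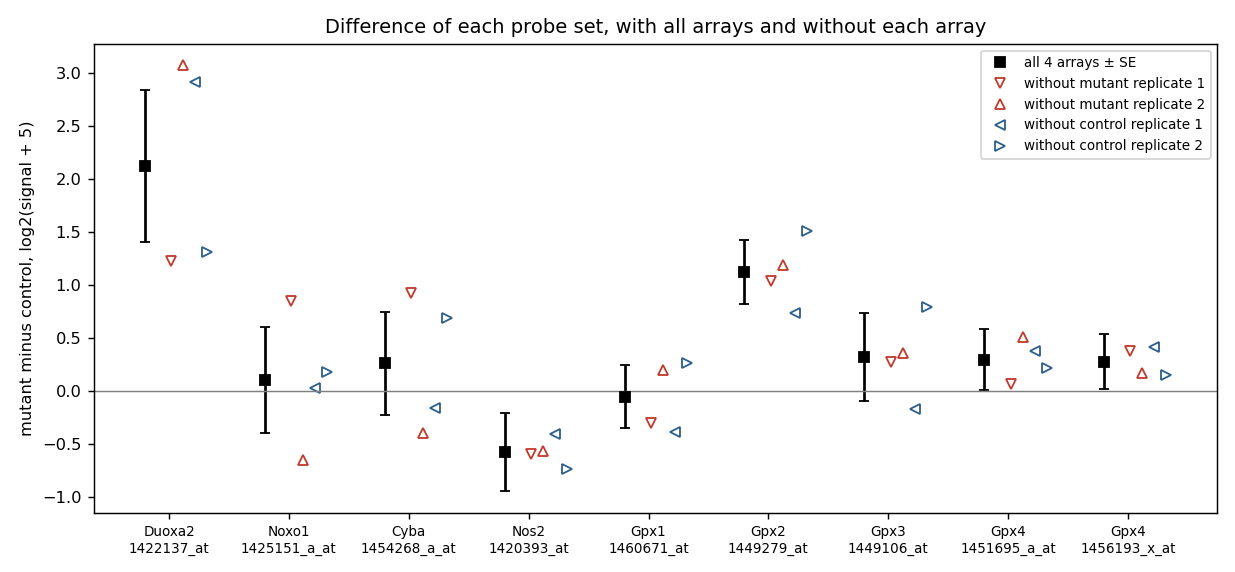
Black squares are the mutant minus control difference of each probe set on the log2(signal + 5) scale with its SE from limma, and open symbols are the same difference with 1 array left out. Duoxa2, Gpx2 and both Gpx4 probe sets stay above 0 in every such fit, and Nos2 below, while Noxo1, Cyba, Gpx1 and Gpx3 change sign.

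The peroxidases were then set against each other within each array, a comparison chosen after the values were seen. A ratio of 2 probe sets on 1 array does not depend on a scaling factor for that array. It carries no information on which transcript is more abundant, since probe sets differ in brightness. The ratio of the Gpx2 to the Gpx1 signal was 1.16 and 1.49 in mutant replicates 1 and 2, against 0.581 and 0.603 in control replicates 1 and 2. The ratio of Gpx2 to Gpx3 was 30.9 and 35.3 in the mutants, against 16.1 and 15.5 in the controls. In both cases the arrays of a group were close together and the groups well apart, by 2.23-fold for Gpx1 and 2.09-fold for Gpx3. Relative to the a_at and x_at probe sets of Gpx4, the Gpx2 signal was 1.81-fold and 1.77-fold higher in the mutants on average, and relative to Noxo1 and Cyba 2.28-fold and 1.88-fold higher. For the a_at probe set of Gpx4 the ratios were 2.30 and 3.22 in the mutants, against 1.08 and 2.08 in the controls, and for the x_at probe set 2.16 and 1.83 in the mutants, against 0.795 and 1.58 in the controls. These 4 ratios did not overlap between the groups, but arrays within a group were further apart than the groups were at their nearest, in both groups for Gpx4 and Noxo1 and among the mutants for Cyba. For Duoxa2 the ratio overlapped. In all, 6 of the 7 ratios to kept probe sets were higher in both mutants than in both controls, as was the ratio of Gpx2 to 81.3% of all other kept probe sets. The count is near that background and is no result about the members. All 7 share the Gpx2 values and are not independent. With 2 arrays a group, an exact two-sided permutation test cannot give a p below 0.333, and none is given for these ratios.

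**Figure D3:**
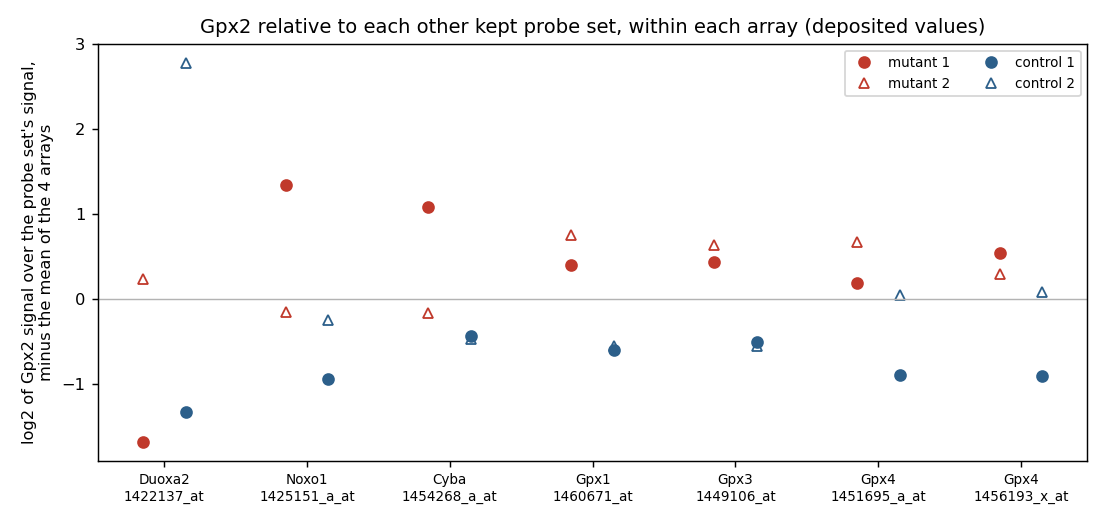
The vertical axis is the log2 ratio of the deposited Gpx2 signal to that of each other kept probe set on the same array, minus its mean over the 4 arrays, with mutants left of controls and circles and triangles for replicates 1 and 2. The Gpx1 and Gpx3 ratios show the 2 controls nearly superimposed and both mutants well above them, and the Duoxa2 ratio shows overlap.

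Duoxa2 (1422137_at) encodes the maturation factor that carries Duox2 out of the endoplasmic reticulum to the apical membrane. Its probe set was dim, with deposited signals of 143 and 25.9 in mutant replicates 1 and 2, against 27.3 and 2.91 in control replicates 1 and 2. Before scaling the groups overlapped, since mutant replicate 2 lay just under control replicate 1. After quantile normalization the log2 signals were 6.93 and 5.16 in the mutants, against 4.70 and 3.14 in the controls, and the groups no longer overlapped. The arrays of a group differed by 1.76 among the mutants and 1.56 among the controls.

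The mean difference in Duoxa2 was 2.12 (SE 0.72) on the log2(signal + 5) scale. It was 2.57 with a pseudocount of 1 and 1.15 with one of 32, and no fold is given because the control mean was below the filter. It did not pass the test (limma adjusted p = 0.768). The mean over the 4 arrays, 4.98, was just above the filter, and the control mean of 3.92 was below it, so the probe set was kept through the mutant arrays. Without mutant replicate 1 the probe set no longer passed the filter, and the difference in a fit with no filter was then 1.22 (SE 0.87). Without control replicate 2 it was 1.31, and without mutant replicate 2 it was 3.07. With median centring the difference was 2.20 (SE 0.52) and passed (limma adjusted p = 0.0063). In that fit limma estimated an infinite prior. The SE thus came from the intensity trend over all probe sets and not from the spread of Duoxa2 itself. In the main fit the SE of 0.72 was also partly borrowed from other probe sets, with 6.4 prior beside 2 residual degrees of freedom.

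Duoxa2 lies head to head with Duox2, the oxidase that it serves, and 159 bases separate the annotated genes. That stretch is shown because it lies between the annotated 5′ ends of both genes. The sequence is from RefSeq, build GRCm38.p6, chr2:122298741-122298899, plus strand, 5′ to 3′, and ends at the base before the Duoxa2 start. Capitals mark the TATA motif TATAAA.
Duoxa2: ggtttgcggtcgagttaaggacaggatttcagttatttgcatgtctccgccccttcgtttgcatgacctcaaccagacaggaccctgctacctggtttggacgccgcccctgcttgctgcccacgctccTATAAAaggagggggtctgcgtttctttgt
The TATA motif lay 30 to 25 bases before the Duoxa2 start. The stretch held 8 CpG dinucleotides, and the longer Gpx2 sequence held 0. No match to either TCF form, the antioxidant response core, the STAT motif or the kappa B consensus was found in the 250 bases upstream of Duoxa2.

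Noxo1 (1425151_a_at), the organizer protein that brings the Nox1 oxidase into its active complex, was inconsistent between the mutant arrays. Its signals were 257 and 494 in mutant replicates 1 and 2, against 305 and 346 in control replicates 1 and 2. The controls were nearly equal and the mutants lay on either side of them, with normalized log2 values of 7.72 and 9.24 in the mutants, against 8.31 and 8.45 in the controls. The difference was 0.10 (SE 0.50; limma adjusted p = 0.983). It was 0.84 without mutant replicate 1 and -0.65 without mutant replicate 2, so that 1 array decides its sign.

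Cyba (1454268_a_at) encodes p22phox, the small membrane subunit shared by several NADPH oxidases, among them that of phagocytes. It had 730 and 1187 in mutant replicates 1 and 2, against 512 and 965 in control replicates 1 and 2. In each group the array numbered 2 was the higher one, and the groups overlapped. The difference was 0.26 (SE 0.49; limma adjusted p = 0.950), with 0.92 without mutant replicate 1, -0.40 without mutant replicate 2 and -0.16 without control replicate 1. The part of phagocytes in the Cyba signal was not tested. The phagocyte oxidase genes Cybb, Ncf1 and Ncf4 differed by -0.20 (SE 0.39), 0.06 (SE 0.50) and 0.09 (SE 0.38).

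Nos2 (1420393_at), the inducible nitric oxide synthase, was at the floor of the measurement. Its signals were 1.57 and 1.18 in mutant replicates 1 and 2, against 7.59 and 2.86 in control replicates 1 and 2. Both mutant signals were below both controls, as they were for 17.6% of the 45037 probe sets tested without a filter, of which 16.7% had both above. In that fit the difference was -0.58 (SE 0.37; limma adjusted p = 0.906), and it ranged from -1.19 with a pseudocount of 1 to -0.13 with one of 32.

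**Figure D4:**
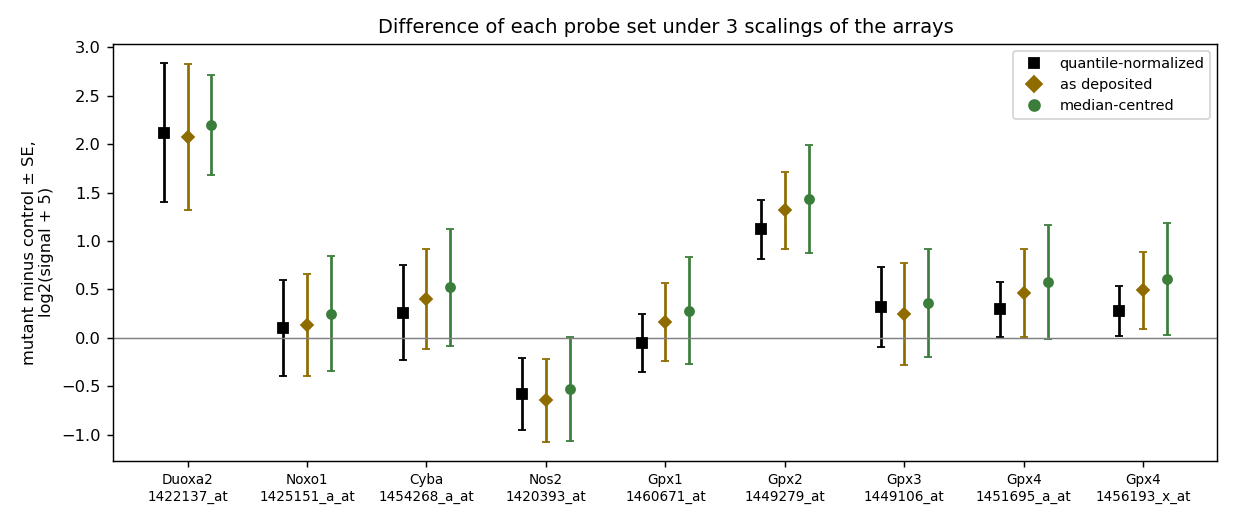
The difference of each probe set with its SE is shown for quantile-normalized values, values as deposited and median-centred values, all on the log2(signal + 5) scale, Nos2 from fits with no filter. Gpx1 lies below 0 with quantile normalization and above it with the other scalings, and the sign of every other probe set is the same under all 3.

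The other genes of these pathways were counted as context, each gene represented by its brightest probe set. Over all 11395 genes kept, 50.7% were higher in the mutants. Without overlap 18.9% were higher and 19.2% lower, and the median difference was 0.0088. None of the lists below had a gene past the limma test over all probe sets, and list genes below the filter are left out of the counts. Overlap in the list counts was judged on normalized values. A kept gene can have passed the filter through 1 group, so the counts are descriptions only.

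Among other NADPH oxidase genes, 5 were kept, 4 higher and 1 lower, with a median of 0.09. The 1 gene whose groups did not overlap was Rac1, the small GTPase that activates several oxidases, at 0.60 (SE 0.26). Rac2, its form in blood cells, was at 0.17 (SE 0.71). In the nitric oxide pathway 3 of 10 kept genes were higher and 7 lower, with a median of -0.06 that turned to 0.08 after median centring. Ddah1, which breaks down a natural inhibitor of the synthases, differed by 1.18 (SE 0.44). Nos1, the neuronal synthase, differed by -1.23 (SE 0.46), and Gch1, which makes the cofactor tetrahydrobiopterin, by 1.005 (SE 0.47). After normalization the mutant and control values of these 3 genes did not overlap. Before scaling those of Gch1 did, at 222 and 61.7 in mutant replicates 1 and 2, against 54.8 and 66.4 in control replicates 1 and 2.

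Of 12 kept genes of other glutathione enzymes, 10 were higher and 2 lower, with a median of 0.20, which was 0.36 on the deposited scale and 0.48 after median centring. Gclc and Gclm, both counted as higher, each had another kept probe set of the opposite sign. Of the 12 genes, 3 were higher without overlap. Mgst2, a membrane-bound glutathione transferase with peroxidase activity, had signals of 4914 and 6196 in the mutants, against 2243 and 2057 in the controls, a difference of 1.08 (SE 0.29). Gsr, the reductase that regenerates glutathione, had 2029 and 1227 in the mutants, against 658 and 937 in the controls, a difference of 0.85 (SE 0.30). Mgst3, a related microsomal transferase, had 1708 and 957 in the mutants, against 782 and 734 in the controls, a difference of 0.60 (SE 0.30). These 3 genes, like Gpx2, were separated before scaling, and the limma adjusted p was 0.768 for Mgst2 and Gsr and 0.789 for Mgst3.

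The enzymes that remove superoxide and peroxide without glutathione were divided, with 5 of 12 higher, 7 lower and a median of -0.04, and with 3 genes without overlap in each direction. That median was 0.25 on the deposited scale and 0.37 after median centring. Srxn1, which repairs overoxidized peroxiredoxins, differed by 1.08 (SE 0.44). Prdx4, the peroxiredoxin of the secretory pathway, differed by -1.36 (SE 0.61) and the thioredoxin reductase gene Txnrd3 by -0.77 (SE 0.36). Before scaling the groups overlapped for Prdx4, at 763 and 312 in mutant replicates 1 and 2, against 2239 and 587 in control replicates 1 and 2. They also overlapped for Srxn1, at 1175 and 423 in the mutants, against 425 and 227 in the controls. The selenium list, which covers the machinery that makes selenocysteine and other selenoproteins, gave 9 of 18 higher and a median of 0.0036, with 0 higher and 2 lower without overlap. Its lowest value was -0.95 (SE 0.33) for the nucleolar selenoprotein gene Selenoh. The values of Eefsec, the elongation factor for selenocysteine, and Selenow were -0.86 (SE 0.53) and -0.60 (SE 0.46), with overlapping groups.

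Targets and regulators of Nrf2, the transcription factor of the antioxidant response, gave 8 of 9 higher with a median of 0.20, which was 0.38 on the deposited scale and 0.496 after median centring. The 8 included Keap1 at 0.012 (SE 0.33), Taldo1 at 0.031 (SE 0.25) and Tkt at 0.062 (SE 0.24), each far under its SE. Nfe2l2, the gene of Nrf2, was at 0.33 (SE 0.28), with another kept probe set of the opposite sign. After normalization 1 gene was higher without overlap and 1 lower. The higher one was Pgd of the pentose phosphate pathway, at 0.35 (SE 0.23), and the lower one the epoxide hydrolase gene Ephx1, at -0.43 (SE 0.36). Deposited signals of Ephx1 overlapped, at 218 and 109 in the mutants, against 235 and 197 in the controls. Me1, which makes NADPH, differed by 0.96 (SE 0.73) with overlap, its signal being 824 in mutant replicate 1, 79.1 in mutant replicate 2 and 104 to 159 in the controls. Epithelial defence genes, which respond to microbes and cytokines as Duox2 and Nos2 do, gave 7 of 9 higher, 5 of them without overlap, with a median of 0.88. With no filter the median over all 16 list genes was 0.50, and 7 of them were below the filter. Among those 7 was the chemokine gene Ccl20, named after its values were seen, with signals of 5.07 and 5.21 in the mutants, against 64.1 and 22.1 in the controls, a difference of -2.05 (SE 0.599; limma adjusted p = 0.880) that did not pass. Reg3g, an antibacterial lectin, differed by 1.77 (SE 0.24), Cxcl1, a neutrophil chemokine, by 1.44 (SE 0.39) and Reg3a by 1.71 (SE 0.61). Earlier results of these data had already shown those 3 genes to be high, and the list is no independent evidence.

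**Figure D5:**
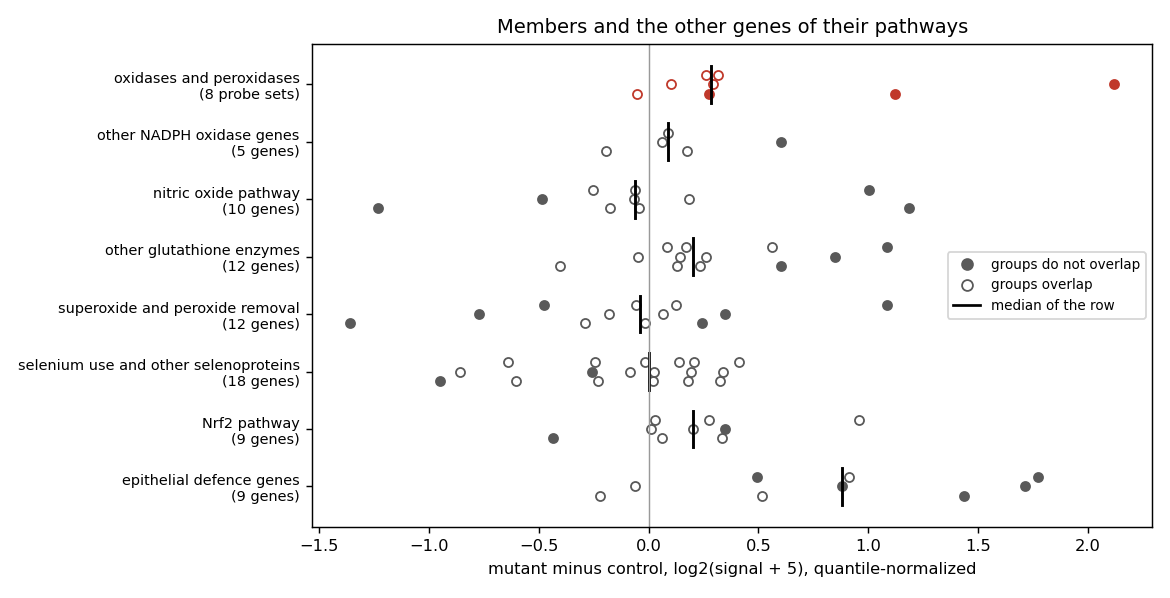
Each point is the mutant minus control difference of a kept probe set or gene on the quantile-normalized log2(signal + 5) scale, filled where the groups do not overlap, and the black line is the median of the row. The medians lie between -0.06 and 0.28 except that of the epithelial defence genes, at 0.88.

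The kept genes most like Gpx2 and Duoxa2 in pattern were found by the Euclidean distance between their 4 log2 values, each centred on its own mean. The 3 nearest to Gpx2 were Tor1a, H6pd and Cd74, at distances of 0.055, 0.091 and 0.093, and 219 probe sets lay within 0.5. For Duoxa2 they were Dusp26, Ltb4r1 and Reg3d, at 0.48, 0.52 and 0.63, with 1 probe set within 0.5. Over 4 arrays many genes have a like pattern by construction, and the distances are a description.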

How the data were processed

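Total RNA of laser-captured crypts was amplified in 2 rounds and labelled with biotin, per the labels. The authors deposited 1 intensity per probe set and array, unlogged. Per the submitters' processing notes they come from MAS5, with no scaling target named. MAS5 corrects with mismatch probes, so dim values are noisy. Of 45101 probe sets, 64 controls were left out, and 34945 of the rest had 1 symbol, 932 several and 9160 none.

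Values were taken as log2(intensity + 5), 5 being the 20th percentile of all values, rounded. They were quantile-normalized because the trimmed means differed by more than 10%. Probe sets with a mean at or above the median were kept (22519). Mutant and control were compared with limma 3.58.1 (R 4.3.3) with an intensity trend, all 4 arrays and Benjamini-Hochberg adjustment at 0.05. Residual degrees of freedom were 2 and prior degrees of freedom 6.4. The test was run on simulated data for this comparison, 22519 probe sets with 200 changed, which gave the recovery quoted. The simulated noise was independent between arrays, with no array-wide effects such as 3' bias. The dimmest kept probe sets were not among those changed. False calls averaged 0 a run for 2-fold and 1.67 for 4-fold changes. The number of arrays is among the limits on precision, and the parts of array quality and dim signal in it were not tested.

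Members and lists were chosen with earlier results of these data known. Named genes were all members, Ctnnb1, Axin2, up to 3 genes of each list with the smallest p, and the 3 nearest to Gpx2 and Duoxa2 in pattern. Others were named after their values were seen. They were Ncf1, Ncf4, Ccl20, Gclc, Gclm, Nfe2l2, Keap1, Taldo1, Tkt, individual marker genes and genes in the closing observations. Alternatives covered scaling, pseudocount, filter, variance model, a replicate block and leaving out each array. Same-numbered arrays of the groups deviated with a correlation of 0.034 over probe sets, so the numbers were not taken as pairs.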

Additional observations from a re-analysis of the deposited data

How the results depend on the processing

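Alternatives that change only the filter, the variance model or the replicate block leave a difference as it was by construction. With these counted, the differences of the member probe sets kept their direction in 107 of 115 alternative values. The exceptions were Gpx1 (0.16 with the values as deposited, 0.28 with median centring, and -0.39 to 0.26 with 1 array left out, positive without control replicate 2 or mutant replicate 2), Cyba (-0.40 to 0.92 with 1 array left out, negative without control replicate 1 at -0.16 or mutant replicate 2), Noxo1 (-0.65 without mutant replicate 2 to 0.84) and Gpx3 (-0.17 without control replicate 1 to 0.79). The cause was not tested. Gpx2, with values from 0.74 to 1.51 and a lowest limma adjusted p of 0.23, passed under none of its 13 alternatives. Duoxa2 ranged from 1.15 with a pseudocount of 32 to 3.07 without mutant replicate 2. Counts of all probe sets past the test were 0 in the main setting, 2 with the values as deposited, 102 with median centring, 1 with the replicate block and 0 to 90 with 1 array left out (20 without mutant replicate 1, 90 without mutant replicate 2). Median centring gave 1 member (Duoxa2) and 1 pathway gene (Reg3g) past the test. It moved the shares of kept probe sets higher and lower without overlap to 17.4% and 11.8%, against 17.3% and 18.9%. Members higher without overlap numbered 3, 2 with the values as deposited (13.3% of kept probe sets), and 4 to 6 with 1 array left out, 6 without control replicate 2. With 1 array against 2, 31.5% to 36.5% of all kept probe sets were higher without overlap. The replicate block gave limma adjusted p = 0.49 for both Duoxa2 and Gpx2 and changed no call of a member. Alternatives for Nos2, and for Duoxa2 with no filter and 1 array left out, were added after seeing the data. Dim signal limits Nos2 and Duoxa2.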

Other observations

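Relatives of the genes described above fell below the filter and were in no count. They are named here after their values were seen, from the fit with no filter, in which 0 of 45037 probe sets passed (limma; 0.0%) and 16.7% were higher in the mutants without overlap. Duoxa1, the maturation factor of Duox1, had signals of 12.5 and 9.83 in mutant replicates 1 and 2, against 4.35 and 3.29 in control replicates 1 and 2. Both control signals were below the pseudocount of 5. The difference was 0.93 (SE 0.48). Duox1 itself had 29.4 and 21.8 in the mutants, against 30.01 and 8.07 in the controls, a difference of 0.62 (SE 0.59), and its groups overlapped before scaling. Gpx7, a peroxidase of the endoplasmic reticulum, had 29.9 and 27.6 in the mutants, against 18.2 and 13.8 in the controls, a difference of 0.81 (SE 0.54). Gpx5 and Gpx6 were at 18.7 or less on every array, with differences of 1.02 (SE 0.48) and 0.11 (SE 0.73). Nox4 differed by 0.18 (SE 0.52), and its groups overlapped before scaling. Sod3 and Selenon, also below the filter, differed by -0.83 (SE 0.61) and -0.21 (SE 0.62).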
